A study of Mus musculus with 4 samples.

Results

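The genes described here are 10 granulocyte-monocyte granule and surface genes, Mpo, Elane, Ctsg, Prtn3, Ms4a3, Ly6c2, Clec12a, Anxa3, Fcnb and Igsf6, each found by its symbol as 1 of the 32285 genes in both count matrices. They were measured in single bone marrow cells sorted as lineage-negative, Sca-1-positive and Kit-positive, the gate that holds haematopoietic stem cells and multipotent progenitors. The cells came from 2 male mice, 3 months old, that carried a tamoxifen-inducible Cre under Tppp3 (Tppp3CreER) and a Cre-dependent tdTomato reporter (LSL-TdTomato), with tamoxifen given at postnatal days 0 and 3. Cells of each mouse went into 1 tube for tdTomato-positive and 1 for tdTomato-negative cells. Both tubes of a mouse therefore share its genotype and tamoxifen, the mark depends on where and when Tppp3CreER was active early in life, and no mouse without Cre or tamoxifen is part of the comparison. Tubes carried hashtag antibodies and each was divided between 2 10x Genomics chemistries, GEM-X and v3.1, so the replicate is the mouse, with 1 tube per mouse and gate.

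Myeloperoxidase (Mpo) and the serine proteases neutrophil elastase (Elane), cathepsin G (Ctsg) and proteinase 3 (Prtn3) are packed into the primary, or azurophil, granules of neutrophils, and their genes are switched on in granulocyte-monocyte progenitors well before a granule is seen. Fcnb encodes a ficolin, a secreted lectin that starts the lectin pathway of complement. Ms4a3 encodes a 4-pass membrane protein typical of granulocyte-monocyte progenitors, Ly6c2 the Ly6C surface antigen of monocytes, Clec12a an inhibitory C-type lectin receptor, Igsf6 an immunoglobulin-superfamily receptor and Anxa3 a calcium-dependent phospholipid-binding protein. C/EBP factors, PU.1 and RUNX1 are known regulators of this programme.

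Positions are given from the GENCODE annotation of mm10. Prtn3 (chr10:79874476-79883174, plus strand) and Elane (chr10:79886247-79888215, plus strand) are neighbours, with 3073 bases between them. Mpo lies at chr11:87793581-87804413 on the plus strand, Ctsg at chr14:56099881-56102574 on the minus strand and Fcnb at chr2:28076378-28084885 on the minus strand. The other genes are Ms4a3 (chr19:11629496-11640851, minus), Ly6c2 (chr15:75108158-75111970, minus), Clec12a (chr6:129342691-129365303, plus), Anxa3 (chr5:96793339-96845966, plus) and Igsf6 (chr7:121064067-121074572, minus). Ly6c2 has a near-identical neighbour, Ly6c1, 59328 bases away, so reads may have been split between them and the Ly6c2 values are uncertain. Mpo overlaps Gm11505, Prtn3 overlaps Plppr3 and Igsf6 overlaps Mettl9 on the opposite strand, and Anxa3 overlaps Gm42603 on its own strand. No source used here states a strand setting for the counting, and reads of these pairs may not have been told apart.

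The sequences upstream of 5 genes are printed because these genes cover the whole order of onset described further on, with the 4 azurophil granule genes and Fcnb as the last to appear. Each sequence is the stretch that touches no annotated exon in the 250 bases before the gene's start in RefSeq, read 5′ to 3′ on the gene's strand from RefSeq on GRCm38.p6. The stretches are chr11:87793534-87793580 (plus) for Mpo, chr14:56102575-56102824 (minus) for Ctsg, chr10:79879417-79879613 (plus) for Prtn3, chr10:79886062-79886246 (plus) for Elane and chr2:28084886-28085128 (minus) for Fcnb. RefSeq's start lies inside the GENCODE gene given above for Mpo, Elane, Prtn3 and Fcnb, where the 250 bases end at 87793783, 79886311 and 79879666 for the 3 plus-strand genes and at 28084879 for Fcnb. The Prtn3 stretch therefore lies within the longer Prtn3 gene of GENCODE. Capitals mark the letters TTNNGNAA (C/EBP), GAGGAA (PU.1) and TGTGGT (RUNX) on either strand.
Mpo: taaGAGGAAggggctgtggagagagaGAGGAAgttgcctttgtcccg
Ctsg: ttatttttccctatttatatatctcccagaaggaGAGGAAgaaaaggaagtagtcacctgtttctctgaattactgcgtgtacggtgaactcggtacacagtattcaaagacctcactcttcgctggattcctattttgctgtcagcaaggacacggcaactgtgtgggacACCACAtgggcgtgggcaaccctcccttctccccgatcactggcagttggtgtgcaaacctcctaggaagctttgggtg
Prtn3: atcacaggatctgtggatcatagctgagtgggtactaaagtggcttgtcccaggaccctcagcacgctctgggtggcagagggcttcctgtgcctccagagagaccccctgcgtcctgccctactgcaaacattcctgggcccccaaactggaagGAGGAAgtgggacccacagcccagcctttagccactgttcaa
Elane: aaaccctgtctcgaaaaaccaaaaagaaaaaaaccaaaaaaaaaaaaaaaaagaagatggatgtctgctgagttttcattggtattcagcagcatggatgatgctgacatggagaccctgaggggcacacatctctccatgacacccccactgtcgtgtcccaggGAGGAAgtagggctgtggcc
Fcnb: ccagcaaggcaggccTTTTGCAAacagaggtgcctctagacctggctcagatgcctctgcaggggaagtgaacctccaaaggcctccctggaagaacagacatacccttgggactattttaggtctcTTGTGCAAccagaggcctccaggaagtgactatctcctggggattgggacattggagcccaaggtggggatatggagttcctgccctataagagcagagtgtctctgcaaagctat
Counted from the RefSeq start, the GAGGAA letters began at -247 and -224 in Mpo, at -216 in Ctsg, at -95 in Prtn3 and at -85 in Elane. Fcnb had no GAGGAA in its window and held TTNNGNAA at -235 and -123. Of the 9 genes with a window, 7 had GAGGAA, 5 had TTNNGNAA and 3 had TGTGGT. Among all 32851 promoter windows, 23.3% held GAGGAA, 36.8% TTNNGNAA and 14.0% TGTGGT. A match describes letters in the window and says nothing of binding.

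After filtering, 32330 cells carried exactly 1 hashtag. They were 3867 tdTomato-positive and 12144 tdTomato-negative cells of mouse 1, and 3933 positive and 12386 negative cells of mouse 2. The deposited matrices held 234563105 gene UMIs for GEM-X and 178214937 for v3.1, and the median cell had 9095, 9315, 7731 and 7855 UMIs in the same tubes. A UMI (unique molecular identifier) counts 1 captured 3′ end, so levels between genes are compared as UMIs per 1000000 gene UMIs (CPM), with no scaling by length. Cells were clustered without the 10 genes into 18 clusters, of which 9 kept a number only. No cell barcode was shared between the chemistries. All 12 HSC markers were detected, at summed levels of 2663 to 3056 CPM per tube. All intervals on shares and sums are exact, at 95%, and cover counting error only.

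Mpo and Prtn3 had the highest levels of the 10 genes in every tube and Fcnb the lowest. Mpo, the enzyme that makes hypochlorous acid, stood at 798.1 CPM in the tdTomato-positive tube and 488.3 CPM in the negative tube of mouse 1, and at 347.4 and 345.3 CPM in the positive and negative tubes of mouse 2. Prtn3 was close to Mpo in every tube, at 801.2 and 457.0 CPM in mouse 1 and 322.9 and 320.9 CPM in mouse 2, positive tube before negative. In both genes the positive tube of mouse 1 stood above the other 3, and the tubes of mouse 2 were nearly equal.

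Elane and Ctsg were also highest in the positive tube of mouse 1, at lower levels than Mpo and Prtn3. Elane stood at 496.3 CPM in the positive and 175.9 CPM in the negative tube of mouse 1, against 113.3 CPM in the positive and 127.5 CPM in the negative tube of mouse 2. Ctsg stood at 326.9 and 166.5 CPM in the positive and negative tubes of mouse 1, and at 107.1 and 101.0 CPM in those of mouse 2. As a ratio, Elane was the granule gene with the widest span between tubes, while Mpo and Prtn3 spanned more CPM.

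Of the surface and membrane genes, Ms4a3 stood at 82.9 CPM in the positive and 31.4 CPM in the negative tube of mouse 1, and at 24.9 and 24.4 CPM in the positive and negative tubes of mouse 2. Ly6c2 stood at 40.6 and 15.5 CPM in mouse 1 and 15.04 and 14.65 CPM in mouse 2, positive before negative. Clec12a spanned less, with 47.9 CPM in the positive tube and 33.2 CPM in the negative tube of mouse 1, and 27.7 and 26.4 CPM in the positive and negative tubes of mouse 2. Igsf6 and Anxa3 were low: Igsf6 ranged over the 4 tubes between 4.59 and 12.8 CPM and Anxa3 between 7.87 and 23.0 CPM, each highest in the positive tube of mouse 1. Fcnb went the other way in mouse 1, with 0.937 CPM (39 UMIs) in the positive and 1.44 CPM (189 UMIs) in the negative tube. In mouse 2 it stood at 1.69 CPM (59 UMIs) in the positive and 1.18 CPM (136 UMIs) in the negative tube.

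**Figure D1:**
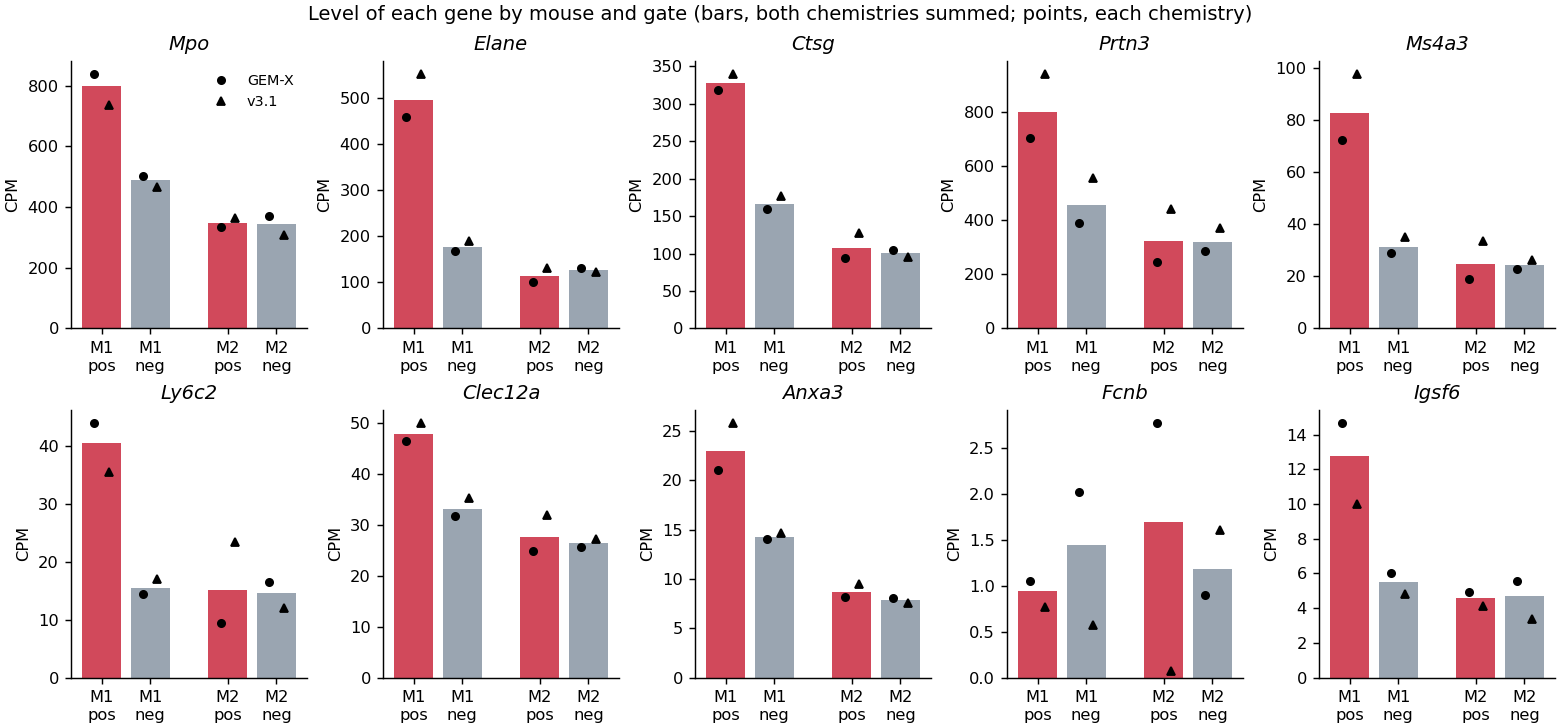
Levels of the 10 genes in the 4 tubes (M1 and M2 are the mice), in CPM on a linear axis that starts at 0, with a bar for both chemistries summed and a point for each chemistry. The positive tube of mouse 1 is the highest for every gene other than Fcnb, and the 2 tubes of mouse 2 lie close together.

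A level summed over a tube can come from many cells or from few, and the genes differed in this. UMIs of Prtn3 were detected in 79.3% of positive and 79.5% of negative cells of mouse 1, and in 67.9% of positive and 70.0% of negative cells of mouse 2. Elane was detected in 12.2% and 10.6% of the positive and negative cells of mouse 1, and in 9.43% and 9.21% of those of mouse 2. So the positive tube of mouse 1 held nearly 3 times the Elane CPM of its negative tube with a share of detected cells only slightly larger. Ranked by their UMIs, 27 of the 3867 positive cells and 33 of the 12144 negative cells of mouse 1 already held 50% of all Elane UMIs of their tube. In mouse 2, 5 positive and 21 negative cells did so.

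For Mpo, 91 positive and 447 negative cells of mouse 1 and 127 positive and 323 negative cells of mouse 2 held 50% of the UMIs. For Ly6c2 these numbers were 17 and 21 cells in mouse 1 and 6 and 17 cells in mouse 2, positive before negative. For Fcnb, 1 positive and 2 negative cells of mouse 1, and 1 positive and 3 negative cells of mouse 2, held 50%. For Prtn3 they were 63 and 359 cells in mouse 1 and 172 and 497 cells in mouse 2, positive before negative. In the positive tube of mouse 1, Clec12a rested on 83 cells, more than Prtn3, and Mpo on the most.

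Across all cells, 9 of the 10 genes rose in tdTomato-positive over tdTomato-negative cells and Fcnb did not pass the test (edgeR quasi-likelihood test on tube sums with the mouse as a block, Benjamini-Hochberg adjusted over 16586 genes). In that comparison 0.796% of all genes tested passed in either direction and 0.555% passed as higher. Ms4a3 rose by a log2 fold change of 0.86 ± 0.10 (SE, adjusted p = 8.7e-08), Ly6c2 by 0.84 ± 0.11 and Igsf6 by 0.74 ± 0.12. Among the granule genes, Elane rose by 0.73 ± 0.13 (adjusted p = 0.000161), Ctsg by 0.57 ± 0.07, Prtn3 by 0.43 ± 0.07 and Mpo by 0.38 ± 0.06 on the log2 scale. Anxa3 rose by 0.50 ± 0.07 and Clec12a by 0.34 ± 0.05, and Fcnb had a log2 fold change of -0.02 ± 0.21 (adjusted p = 0.999). The median log2 fold change was 0.54 over the 10 genes, against 0.0017 over all genes tested.

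The calls depended on the fit and on mouse 1. With 2 mice and 1 residual degree of freedom the spread is an estimate shared over genes, and 0 of the 9 calls were made without the mouse as a block, with DESeq2, with GEM-X alone, with Scrublet-called doublets left out, and when any 1 tube was left out. Leaving out the Scrublet doublets ended the calls and hardly moved the values, with Mpo at 0.38, Elane at 0.72 and Ms4a3 at 0.85 on the log2 scale. Without the positive tube of mouse 1, all 9 log2 fold changes turned negative, between -0.45 (Elane) and -0.03 (Ly6c2). That fit had no mouse block and set the positive tube of mouse 2 against the negative tubes of both mice. Its values mix the gate with the difference between mice and do not show a reversal within mouse 2.

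The ratio within each mouse, which keeps its tubes paired, was raised for most genes in mouse 1 and small for most in mouse 2. In mouse 1 the log2 ratio of positive over negative CPM was 1.50 for Elane, 1.40 for Ms4a3, 1.39 for Ly6c2, 1.21 for Igsf6, 0.97 for Ctsg, 0.81 for Prtn3, 0.71 for Mpo, 0.69 for Anxa3, 0.53 for Clec12a and -0.62 for Fcnb. In mouse 2 it was -0.17 for Elane, 0.52 for Fcnb and between -0.03 (Igsf6) and 0.14 (Anxa3) for the other 8. The median over the 10 genes was 0.89 in mouse 1 and 0.03 in mouse 2. There is 1 tube per mouse and gate, so the difference between mice was not tested.

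The median ratio was alike between the chemistries in mouse 1 and split in mouse 2. In mouse 1 the median log2 ratio was 0.93 with GEM-X and 0.88 with v3.1. Within mouse 1, Fcnb had -0.94 with GEM-X and 0.44 with v3.1, and Ly6c2 had 1.61 and 1.06. In mouse 2 the median was -0.17 with GEM-X, where 2 of 10 genes were higher in positive cells, and 0.27 with v3.1, where 9 of the 9 genes with enough UMIs were higher. Ly6c2 stood at -0.80 with GEM-X and 0.97 with v3.1 in mouse 2. Each tube had been divided between the chemistries.

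**Figure D2:**
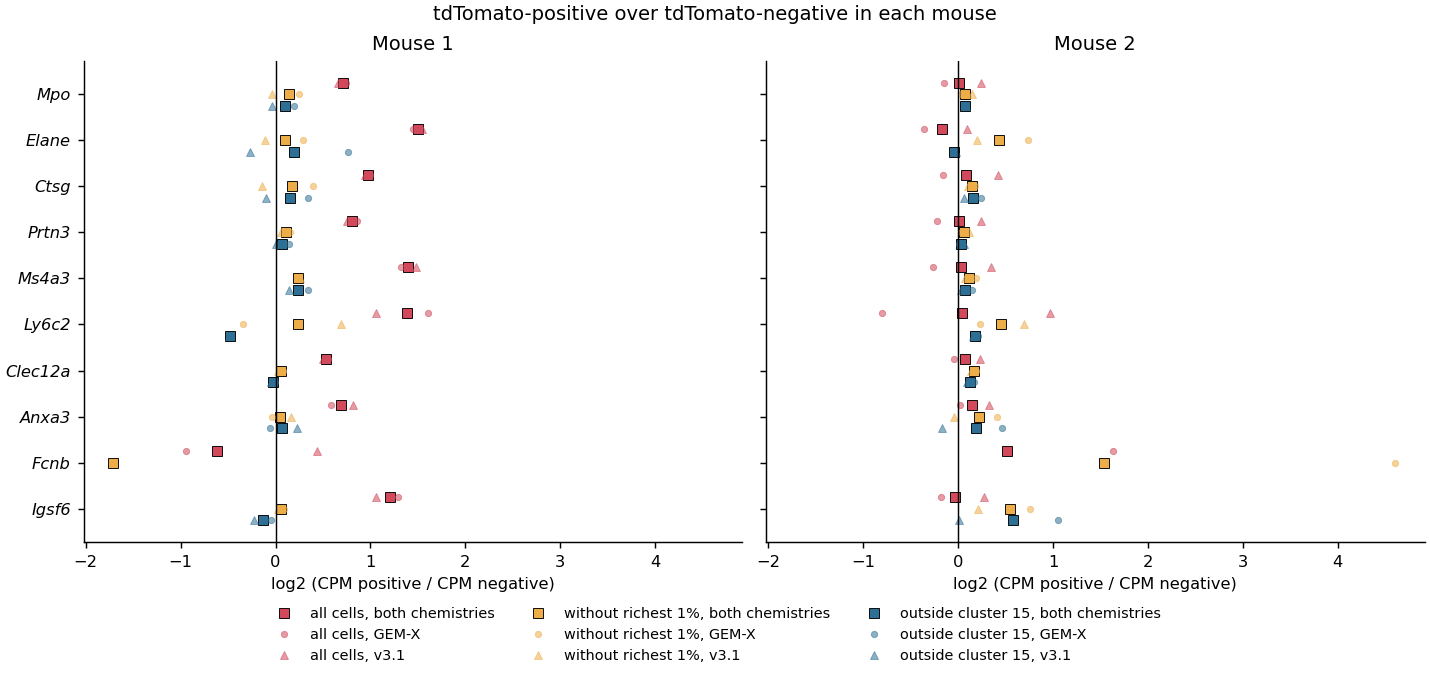
Log2 ratio of tdTomato-positive over tdTomato-negative CPM for each gene in mouse 1 and mouse 2, over all cells, with the cells richest in the other 9 genes left out, and outside cluster 15, with squares for both chemistries summed and small symbols for each. The median of mouse 1 is 0.89 over all cells and 0.11 without the rich cells, and that of mouse 2 is 0.03 and 0.19, while Fcnb in mouse 1 lies further from 0 without them (-1.71).

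The UMIs of these genes were concentrated in a small set of rich cells, and the tubes differed in how many they held. Rich cells were the 1% of cells of each chemistry with the most UMIs of the 10 genes per 10000, and for each single gene the other 9 chose them. The positive tube of mouse 1 held 109 rich cells, or 2.82% of its cells (2.32% to 3.39%), and the negative tube 121, or 0.996% (0.827% to 1.19%). The positive tube of mouse 2 held 21, or 0.53% (0.33% to 0.82%), and the negative tube 72, or 0.58% (0.46% to 0.73%). With GEM-X these were 8 of 2174 positive and 44 of 6810 negative cells of mouse 2, and with v3.1 13 of 1759 positive and 28 of 5576 negative cells, numbers too small to give an order firmly. These cells held 68.4% of all UMIs of the 10 genes in the positive and 43.1% in the negative tube of mouse 1, and 38.7% in the positive and 43.0% in the negative tube of mouse 2.

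For the 3 most abundant genes the level inside a rich cell differed little between tubes. Elane stood at 6927 CPM in rich positive and 6495 CPM in rich negative cells of mouse 1, and at 6615 and 6791 CPM in those of mouse 2. Mpo stood at 6270 and 5669 CPM in mouse 1 and at 5788 and 6393 CPM in mouse 2, and Prtn3 at 7407 and 6736 CPM in mouse 1 and 6564 and 6602 CPM in mouse 2, positive before negative. Rich cells were chosen by a cut on the UMIs of the other genes, so similar levels among them may follow from that choice. In cluster 15, described below and made without these genes, the levels of the 3 genes lay further apart between tubes. Elane stood there at 6062 and 5157 CPM in the positive and negative cells of mouse 1, and at 4537 and 5701 CPM in those of mouse 2. How far the level in such cells, rather than their share, sets the tubes apart was not tested. As a ratio, Ly6c2, Clec12a and Fcnb differed more between tubes among rich cells than Elane, Mpo and Prtn3. Ctsg and Anxa3 differed no more than Mpo and Prtn3. Ctsg stood at 3263 and 2988 CPM in mouse 1 and 2926 and 2904 CPM in mouse 2, positive before negative. Anxa3 stood at 204 and 206 CPM in mouse 1 and 208 and 191 CPM in mouse 2, in the same order. Ly6c2 stood at 571 and 565 CPM in the rich positive and negative cells of mouse 1 and 786 and 762 CPM in those of mouse 2. Clec12a stood at 325 and 295 CPM in mouse 1 and 403 and 445 CPM in mouse 2, and Fcnb at 12.01 and 41.1 CPM in mouse 1 and 54.8 and 54.3 CPM in mouse 2, positive before negative.

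The share of each gene's UMIs that lay in rich cells ordered the genes. Of Elane, 95.9% lay there in the positive and 88.6% in the negative tube of mouse 1, and 83.3% and 89.0% in those of mouse 2. Of Mpo, 54.3% and 29.1% lay there in mouse 1 and 26.2% and 29.4% in mouse 2, positive before negative. Clec12a was lowest, at 46.4% and 22.0% in mouse 1 and 22.3% and 27.2% in mouse 2. Ly6c2 was as concentrated as Elane (79.4% to 96.0% over the tubes), Ms4a3 had 63.6% to 88.3% and Igsf6 47.5% to 83.5%, and Prtn3, Anxa3 and Ctsg had 31.1% to 68.9%.

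With the rich cells left out, the median log2 ratio was 0.11 in mouse 1, with 9 of 10 genes still higher in positive cells and Fcnb at -1.71 (5 UMIs in positive and 54 in negative cells), and stood at 0.19 in mouse 2, with 10 of 10 higher. For Elane the log2 ratio without rich cells was 0.10 in mouse 1 and 0.43 in mouse 2. In edgeR's quasi-likelihood fit without these cells Ctsg (log2 fold change 0.21 ± 0.03), Elane (0.24 ± 0.05), Mpo (0.12 ± 0.02) and Prtn3 (0.09 ± 0.02) still passed. The other 6 did not pass, beside 161 of 16543 genes called in either direction and 96 as higher. The median of mouse 1 depended on how many cells were left out. It was 0.58 without the richest 0.25%, 0.47 without 0.5% and 0.01 without 2% or 5%.

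The threshold for a rich cell fell inside a continuous range. The last GEM-X cell inside had 121.8 UMIs of the 10 genes per 10000 and the first outside 121.4, and for v3.1 these values were 105.9 and 104.9. The median cell held 227 inside and 3.05 outside with GEM-X, and 222 inside and 4.85 outside with v3.1.

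The clusters, which were made without the 10 genes, placed the rich cells together. Cluster 15 had 427 cells, 11 of the 12 granulocyte-monocyte markers raised in it and S100a9, S100a8, Ngp and Camp as leading genes. Those 4 are genes of later neutrophils, so the cluster is called by its number. It stood in the place of the granulocyte-monocyte-like clusters that the tests leave out. It held 97.8% of the 323 rich cells, and 74.0% of its own cells were rich. It made up 3.36% of the positive cells (2.82% to 3.98%) and 1.27% of the negative cells (1.08% to 1.48%) of mouse 1, and 0.99% of the positive (0.71% to 1.35%) and 0.84% of the negative cells (0.69% to 1.02%) of mouse 2.

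Cluster 15 cells were also large libraries, with a median of 25771 UMIs against 8529 over all cells, so they weigh more in a tube sum than their number. Scrublet called none of them a doublet in either positive tube, and 0.65% in the negative tube of mouse 1 and 0.96% in that of mouse 2. Of the cells with several hashtags it called only 27.2% with GEM-X and 20.5% with v3.1, so doublets can escape it. Summed over the tube, the 12 granulocyte-monocyte markers outside the 10 genes stood at 1366 CPM in the positive and 1117 CPM in the negative tube of mouse 1, and at 949 and 944 CPM in those of mouse 2. The 8 neutrophil markers did not move with them, at 111 and 122 CPM in mouse 1 and 192 and 151 CPM in mouse 2, positive before negative. No marker of either list was at 0, and their part in the result was not tested.

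Within cluster 15 the genes were far above all other cells. Averaged over the cluster, Prtn3 stood at 5986 CPM, Elane at 5514, Mpo at 5427, Ctsg at 2697, Ms4a3 at 832, Ly6c2 at 528, Clec12a at 321, Anxa3 at 184, Igsf6 at 139 and Fcnb at 38.8 CPM. The first 3 differed by less than their spread between tubes, in which Elane ranged between 4537 and 6062 CPM. Outside cluster 15, Elane stood between 11.6 and 14.4 CPM over the 4 tubes, while Mpo kept 361 and 336 CPM in the positive and negative tubes of mouse 1 and 248 and 236 CPM in those of mouse 2. Prtn3 kept 295 and 281 CPM in mouse 1 and 215 and 210 CPM in mouse 2.

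Outside cluster 15 little of the gate difference remained. Of the 9 genes tested there, Mpo (log2 fold change 0.09 ± 0.02, adjusted p = 1.88e-05) and Ctsg (0.16 ± 0.03, adjusted p = 2.79e-05) rose in edgeR's quasi-likelihood test, beside 0.866% of 16513 genes in either direction and 0.436% as higher. Prtn3 had 0.06 ± 0.02 (adjusted p = 0.107), and Fcnb was too low to be tested. With GEM-X alone 4 genes passed, with v3.1 alone none, and Ctsg then had -0.03. Neither call held when any 1 tube was left out or without the mouse as a block.

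In HSC-like cells none of the 9 genes tested passed between the gates (edgeR, 0 adjusted and 0 at an unadjusted p under 0.05), beside 0.0785% of 14004 genes called, 0.05% as higher and 0.0286% as lower. These were the 8666 cells of clusters 1, 2 and 7, in which 8 to 11 of the 11 HSC markers tested were raised.

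Ordering all cells by a granulocyte-monocyte score that used 12 other genes gave a sequence of appearance of the 10 genes. The score was averaged over 30 neighbouring cells and split at percentiles within each chemistry. Shares of cells with a UMI were taken after thinning each cell to 3000 UMIs, which left out 1009 shallower cells. A bin is a range of the score, not a cell type, and the median depth rose from 7219 UMIs in the lowest bin to 27862 in the highest.

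Mpo had the highest share of the 10 genes in each bin of percentiles 75 to 99. Its thinned share was 12.3% in the lower 50% of cells, 40.4% in percentiles 50 to 75, 63.8% in 75 to 90 and 98.5% in 98 to 99. Its level over the same bins was 56.8, 235, 454 and 2685 CPM, and 6557 CPM in the highest 0.5%. Mpo was thus already found in most cells of a range of the score far below the rich cells.

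Ctsg had 2.96% in the lowest bin, 15.1% in percentiles 75 to 90, 57.4% in 95 to 98 and 88.5% in 98 to 99. Clec12a climbed slowly, from 1.46% in the lowest bin over 8.44% in percentiles 75 to 90 and 34.4% in 98 to 99 to 72.2% in the highest 0.5%. Anxa3 had 0.58%, 2.22%, 18.6% and 46.3% in those 4 bins. These 3 genes were higher in each bin than in the one before it.

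Elane behaved as a late, steep gene. Its thinned share stayed between 2.88% and 6.10% in every bin up to percentile 98, was 37.2% in percentiles 98 to 99 and 92.5% in the 0.5% of cells above that, the last bin but one. Its level was 20.6 CPM in percentiles 95 to 98, 536 CPM in 98 to 99, 3932 CPM in the last bin but one and 9361 CPM in the highest 0.5%. By level, Elane was the lowest of the 4 azurophil genes between percentiles 50 and 98 and the highest of all 10 genes in the last bin.

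Ms4a3 went with Elane, at 5.27% in percentiles 95 to 98, 22.3% in 98 to 99 and 72.3% in the last bin but one. Ly6c2 came later still, at 0.52%, 3.72% and 45.3% in those bins, and reached 79.0% in the highest 0.5%. Igsf6 had 1.65%, 10.2% and 27.7% there. Fcnb was last, at 0.63% in the last bin but one and 13.6% in the highest 0.5%, where its level was 93.0 CPM.

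Prtn3 fell outside this order. It was already in 42.6% of thinned cells in the lowest bin and stayed between 43.7% and 47.8% up to percentile 90, before it reached 92.0% in percentiles 98 to 99. Its level was 188 CPM in the lowest bin and 8583 CPM in the highest. The gene that was most widely present at the bottom of the score was therefore Prtn3.

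By the first bin that reached 10% of a gene's highest CPM, the order was Mpo and Clec12a in percentiles 90 to 95, Ctsg and Anxa3 in 95 to 98, Prtn3 and Igsf6 in 98 to 99, Elane, Ms4a3 and Ly6c2 in the last bin but one and Fcnb in the highest 0.5%. Genes in the same bin are not ordered among themselves. Mouse 1 alone gave the same bins for all 10 genes, and mouse 2 alone moved Ms4a3 1 bin earlier. GEM-X alone moved Mpo 1 bin later, and v3.1 alone moved Ms4a3 1 bin earlier. With a score from the cell alone, without neighbours, Ctsg moved 1 bin later, and Ms4a3 and Fcnb moved earlier, to percentiles 98 to 99.

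**Figure D3:**
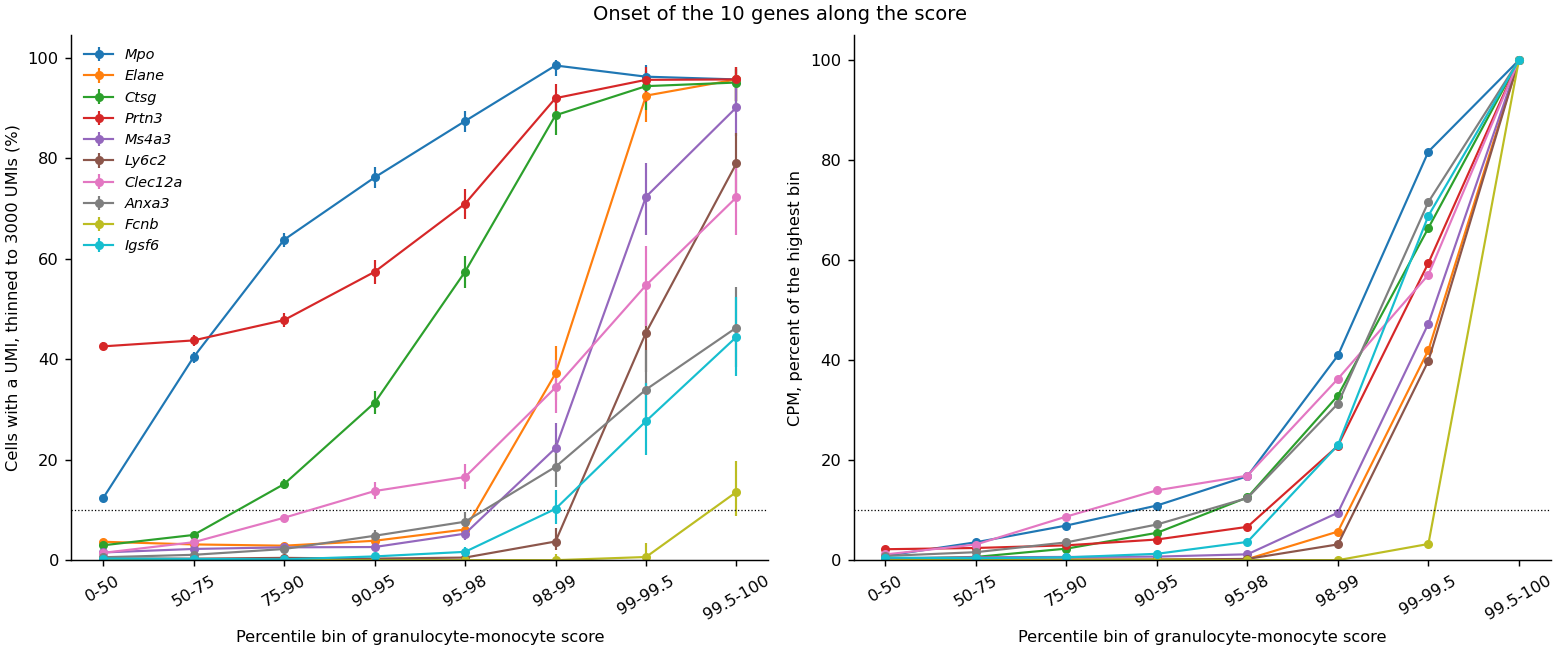
Share of cells with a UMI after thinning to 3000 UMIs (left, with exact 95% intervals) and level as a percent of the gene's highest bin (right), each against the percentile bin of the granulocyte-monocyte score, with a dotted line at 10%. Mpo climbs from 12.3% in the lowest bin, Prtn3 starts at 42.6%, Elane stays at or under 6.10% up to percentile 98, and Fcnb reaches 13.6% only in the highest bin.

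Priming of the programme in stem-like cells was read against cell types that should lack it, because free RNA in droplets gives every cell some UMIs. Prtn3 was detected in 48.7% of thinned HSC-like cells (47.7% to 49.8%) at 242 CPM, and in 73.4% before thinning. In B cell-like cells it was detected in 7.28% after thinning (3.69% to 12.7%) at 25.5 CPM, in erythroid-like cells in 7.65% at 21.0 CPM and in T and NK cell-like cells in 9.21% at 31.5 CPM. The median depth was 6854 UMIs in HSC-like and 7144 UMIs in B cell-like cells. T and NK cell-like cells had 10929 UMIs and erythroid-like cells 34376, so these classes match HSC-like cells less well in depth. What depth does to a background share was not tested. The Prtn3 share of HSC-like cells was thus several times that of the cell types used as background. It was not particular to HSC-like cells, since all other cells outside cluster 15 had 44.6%.

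The share was similar in both gates. Prtn3 was detected in 52.8% of positive and 54.7% of negative HSC-like cells of mouse 1, and in 46.3% of positive and 44.2% of negative HSC-like cells of mouse 2. The mice lay further apart than the gates, and the chemistries further still, at 41.1% with GEM-X and 59.2% with v3.1. Cells chosen instead by at least 3 detected HSC markers gave 46.6%, near the 45.7% of all thinned cells outside cluster 15. Most cells met that rule, so it does not single out stem-like cells. Of the 30896 thinned cells outside cluster 15, 5942 had 3 markers, 7169 had 4 and 12031 had at least 5.

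Mpo in HSC-like cells lay within the range of the background classes, above B cell-like and below T and NK cell-like cells. It was detected in 9.19% of thinned HSC-like cells at 39.1 CPM, against 3.97% at 28.7 CPM in B cell-like cells. Erythroid-like cells had 8.24% at 16.8 CPM, and T and NK cell-like cells 10.5% at 97.9 CPM. The last class had 3 of 12 granulocyte-monocyte markers raised, which limits it as a background. Elane was detected in 3.82% of HSC-like cells at 11.2 CPM, against 2.65% at 8.51 CPM in B cell-like cells. Ctsg was detected in 2.90% at 9.37 CPM, and in 0 of the 151 thinned B cell-like cells, which allows a share of up to 1.99%, at 3.72 CPM. Ms4a3 was detected in 1.13% of HSC-like cells, Clec12a in 1.06%, Anxa3 in 0.53%, Igsf6 in 0.33%, Ly6c2 in 0.32% and Fcnb in 0 of 8524, which allows a share of up to 0.0352%. The Ctsg share lay above the 1.99% limit of B cell-like cells, but T and NK cell-like cells had 35.9 CPM of Ctsg. Clec12a had 43.1 CPM in B cell-like cells and up to 4.49 CPM in the HSC-like clusters. Anxa3 and Igsf6 lay under the same 1.99% limit, from 0 of 151 B cell-like cells. Ms4a3 and Ly6c2 lay under 1.76%, the limit from 0 of 170 erythroid-like cells, the deepest of the background classes. Each limit takes 3 cells as the most that a count of 0 allows. None of these shares was read as expression.

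The ratio between genes differed between the classes. HSC-like cells gave 21.6 Prtn3 UMIs per Elane UMI, megakaryocyte-platelet-like cells 13.9, lymphoid-like cells 10.96, erythroid-like cells 5.76, B cell-like cells 3.00, cluster 15 1.09 and all other cells 19.6. Per Mpo UMI, HSC-like cells gave 6.21 Prtn3 UMIs, against 1.10 in cluster 15, 0.889 in B cell-like cells and 0.706 in all other cells. What free RNA adds to these ratios was not tested. Within HSC-like cells, Mpo was detected in 9.46% of the cells with Prtn3 and in 9.19% of all.

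Counting HSC markers per cell gave the other side of this pattern. Among the thinned cells outside cluster 15 with 0, 1, 2, 3, 4 and at least 5 HSC markers, Mpo was detected in 45.7%, 56.1%, 53.4%, 46.4%, 34.2% and 18.2%. Ctsg had 23.8%, 24.1%, 18.9%, 11.8%, 6.74% and 3.86%, and Clec12a 16.1%, 14.4%, 8.79%, 5.03%, 3.33% and 1.62%. Prtn3 did not fall, at 27.0%, 40.4%, 44.5%, 45.9%, 45.3% and 47.6%. Its rise lay mainly in the cells with 0 and 1 markers, which numbered 403 and 1609, and from 2 markers on it changed little. Elane lay between 3.22% and 4.72% throughout.

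**Figure D4:**
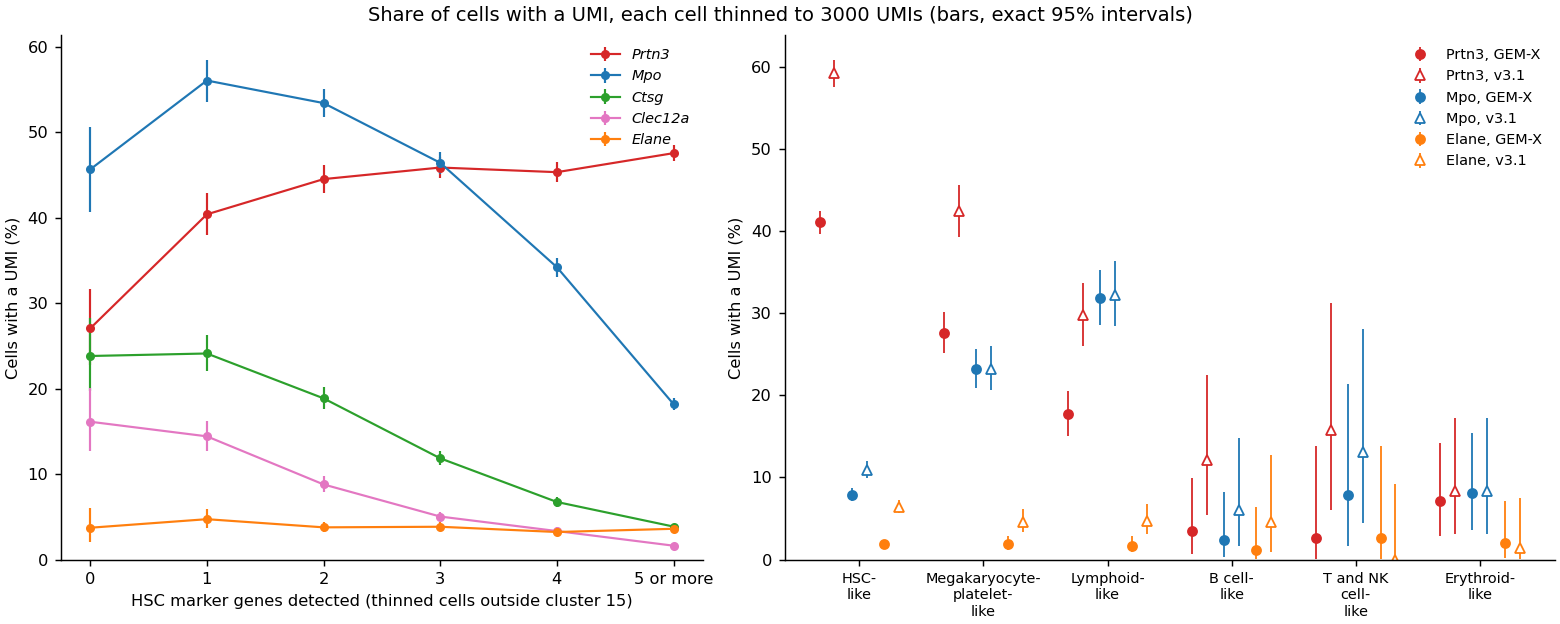
Share of thinned cells with a UMI against the number of HSC markers detected (left, 5 genes, cells outside cluster 15) and by cell class and chemistry (right, 3 genes), with exact 95% intervals. Mpo is at 45.7% with no marker and 18.2% with 5 or more, and Prtn3 at 27.0% with none, 44.5% with 2 and 47.6% with 5 or more. Prtn3 in HSC-like cells stands at 41.1% with GEM-X and 59.2% with v3.1, above its share in the other 5 classes drawn within each chemistry.

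Most clusters held more Mpo than the HSC-like ones, which had 21.3 to 54.4 CPM. B cell-like cells, at 28.7 CPM, and erythroid-like cells, at 16.8 CPM, did not. Cluster 3, which has no name and whose leading genes include Irf8, Csf1r and cell-cycle genes, had 731 CPM of Mpo, 415 CPM of Prtn3, 219 CPM of Ctsg and 22.2 CPM of Elane in its 2777 cells. Lymphoid-like cells had Mpo in 32.0% and Prtn3 in 22.7% after thinning, and megakaryocyte-platelet-like cells had Mpo in 23.2% and Prtn3 in 34.0%. Clec12a was detected in 11.2% of lymphoid-like, 21.1% of T and NK cell-like and 8.61% of B cell-like cells, so UMIs of this surface receptor were also found in lymphoid classes. Outside cluster 15 as a whole, Mpo was detected in 71.2% of cells with Ctsg and in 33.9% of all, whereas Elane was detected in 4.16% of cells with Mpo and in 3.64% of all. At least 3 of the genes were found in 94.8% of the 425 thinned cells of cluster 15, in 7.02% of the 30896 outside it and in 0.70% of HSC-like cells. At least 5 were found in 86.6% of thinned cells in cluster 15 and 0.278% outside it.

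Cluster 15 was itself mixed, and its sub-clusters, again made without the 10 genes, differed in these genes. Sub-cluster 1, with 71 cells and Gstm1 and Pglyrp1 among its leading genes, had the most Elane (11597 CPM) and Prtn3 (10222 CPM), 7295 CPM of Mpo and the most Ms4a3 (1734 CPM). Sub-cluster 5, with 44 cells, was led by Cxcl9, with F13a1 and Ly86, genes of monocytes, also among its leading genes. It had 1341 CPM of Ly6c2 beside 6342 CPM of Elane. Sub-cluster 3, with 51 cells led by Cd74 and H2-Aa, genes of antigen presentation, had 646 CPM of Ly6c2, 150 CPM of Ms4a3 and only 1183 CPM of Elane. It also had more F13a1 than sub-cluster 5 (968 against 615 CPM), and more Ccr2 (313 against 75.3 CPM) and Csf1r (92.5 against 47.9 CPM). Sub-cluster 6 was led by Rgs7bp and Slc24a3, with the mast cell gene Cpa3 lower among its leading genes and no UMIs of Prg2 or Epx. Sub-cluster 7 was led by the eosinophil granule genes Prg2 and Epx, with Cpa3 also among its leading genes. Sub-clusters 6 and 7 had 35.8 and 72.9 CPM of Ly6c2, with 2648 and 2409 CPM of Elane.

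Most Fcnb UMIs came from 17 cells. Sub-cluster 10, led by Camp, Ngp, S100a9 and Ltf, genes of the secondary granules of later neutrophils, held 319 of the 412 Fcnb UMIs of cluster 15, beside 86 in sub-cluster 1, and had 1638 CPM of Fcnb. It also had the highest Ly6c2 (1515 CPM), Clec12a (801 CPM) and Igsf6 (493 CPM) of the 10 sub-clusters, with 10847 CPM of Elane. Of its cells, 1 came from the positive and 4 from the negative tube of mouse 1, and 2 from the positive and 10 from the negative tube of mouse 2. The make-up of cluster 15 also differed between the mice. Sub-cluster 3 made up 7.69% of its positive and 6.49% of its negative cells in mouse 1, and 28.2% of its positive and 19.2% of its negative cells in mouse 2.

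**Figure D5:**
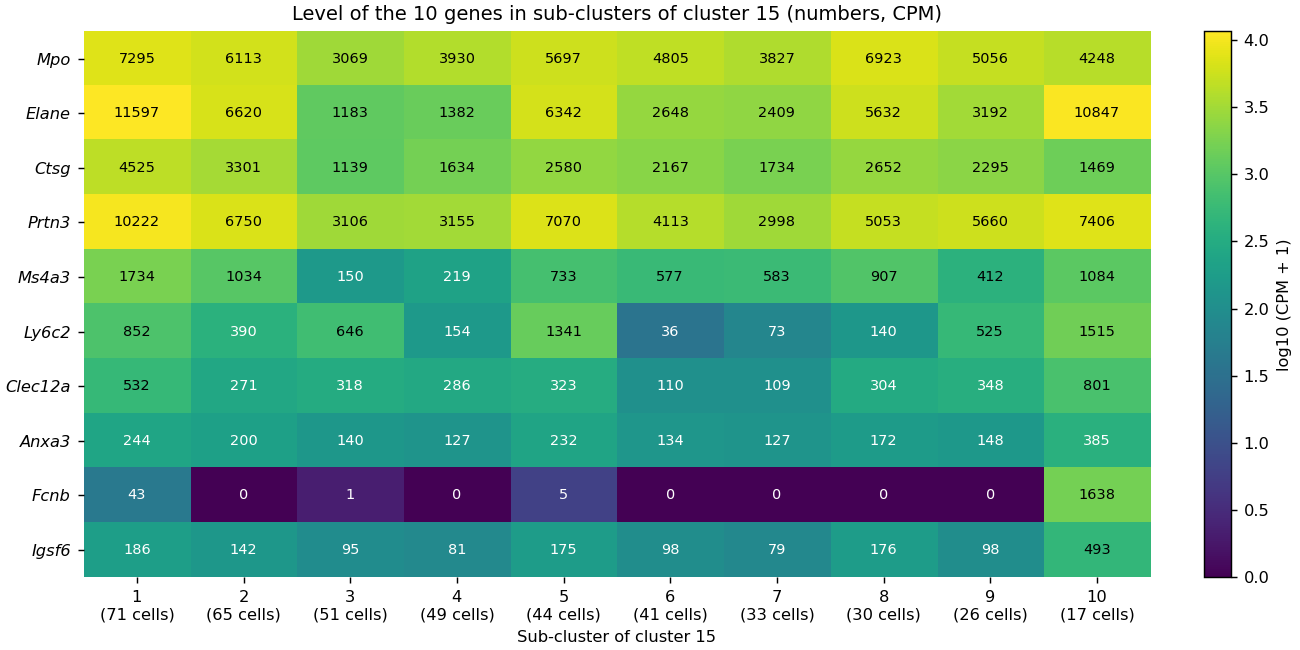
Levels of the 10 genes in the 10 sub-clusters of cluster 15, with the CPM printed in each cell and coloured on a log10 scale. Fcnb is concentrated in sub-cluster 10 (1638 CPM), and Ly6c2 is low in sub-clusters 6 and 7 (35.8 and 72.9 CPM) that hold Elane above 2000 CPM.

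Most genes tested differed in level between the chemistries, some of these 10 included, which bears on any comparison between the matrices. Over 8 tube and chemistry sums, 6 of the 10 genes passed edgeR's quasi-likelihood test with the tube as a block. Of all 15218 genes 75% passed, 38.4% as higher and 36.6% as lower with GEM-X, so the 10 did not stand out. Without that block 0 of the 10 and 9423 of all genes passed. Igsf6 (log2 fold change 0.51 ± 0.08) and Mpo (0.15 ± 0.04) were higher with GEM-X. Prtn3 (-0.49 ± 0.04), Ms4a3 (-0.35 ± 0.06), Elane (-0.13 ± 0.04) and Clec12a (-0.13 ± 0.04) were lower with GEM-X. The Elane gap was not the same in all tubes: in the positive tube of mouse 1 it stood at 457.8 CPM with GEM-X and 552.6 CPM with v3.1, in the negative tube of mouse 2 at 130.5 and 123.1 CPM. HSC-like cells had 5.28 CPM of Elane with GEM-X and 20.9 CPM with v3.1.

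Of the wider programme, some genes also passed as higher over all cells, in the fit in which 0 genes passed without the mouse as a block. In the list of granule cofactors, inhibitors and later granule genes, 5 of the 19 genes tested rose between the gates and 0 fell, beside 0.555% of all genes called higher, with a median log2 fold change of 0.13. Hp (haptoglobin) rose by 0.74 ± 0.12, Cst7 (cystatin F) by 0.32 ± 0.04, the granule protease gene Prss57 by 0.26 ± 0.06 and S100a8 by 0.21 ± 0.04. Among 12 surface receptors 1 rose, Fcgr3, an IgG receptor (0.75 ± 0.14), with a median of 0.01, and among 9 myeloid regulators 1 rose, Irf8 (0.24 ± 0.04), with a median of 0.13. Within each mouse, the log2 ratios of positive over negative cells were not alike for all of these genes. Hp and Fcgr3 were above 1 in mouse 1, and at -0.19 and -0.04 in mouse 2. Cst7 had 0.39 in mouse 1 and 0.18 in mouse 2, and Prss57 had 0.39 and 0.06. S100a8 had 0.05 and 0.34, and Irf8 0.21 and 0.24, mouse 1 before mouse 2. These differences between mice were not tested. None of the 3 lists had a gene that passed outside cluster 15. The non-member genes whose level over the 18 clusters was most like the mean of the 10, of 9432 compared, were Hp (Pearson r 0.95), Alas1 (0.94), Atp6ap2 (0.92), Ngp (0.90) and Camp (0.89), all highest in cluster 15.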

How the data were processed

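Single-cell gene expression and hashtag libraries of 2 mice came from 10x chemistries GEM-X and v3.1. The deposited matrices hold UMI counts per gene and cell that the authors made with Cell Ranger 8.0.1 for GEM-X and 7.1.0 for the other matrix, per the file headers. The submitters' processing notes name Cell Ranger 7.0.0 and mm10. The matrix without GEM-X in its name was taken as v3.1. Tube identity came from the hashtag features, whose assignment per mouse and gate the labels state, although another label describes a single positive and a single negative tube.

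Cells with at least 1000 genes, at most 10% mitochondrial UMIs and exactly 1 hashtag (posterior over 0.5 in a 2-component Gaussian mixture) were kept, which were 20140 GEM-X and 16721 v3.1 cells before the hashtag step. Cells were clustered without the 10 genes (2000 variable genes, 30 components, 30 neighbours, Leiden resolution 1; scanpy 1.11.5, leidenalg 0.10.2). Doublets with 2 hashtags were removed, and Scrublet (score over 0.2) called 4.09% of GEM-X and 3.77% of v3.1 cells.

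Counts were summed per tube and tested with edgeR 4.0.16 (R 4.3.3; TMM, filterByExpr, quasi-likelihood, trended dispersion held at 0.0001 or above, mouse as block), adjusted by Benjamini-Hochberg over all genes, at 0.05. Fewer cells and less RNA per cell give the same tube sum, so sums are given beside the number of cells. The block follows from the hashtags, since both tubes of a mouse come from 1 animal, and the difference between the mice had a Pearson r of 0.84 between positive and negative tubes across 9368 genes. DESeq2 1.42.0, no block, other normalization and filters, each chemistry alone and each tube left out were tried. The scripts were tested on simulated data. The 10 genes and the lists were chosen with earlier results of these data known. All 10 genes are named throughout, and up to 4 genes of each other list, those with the largest change past the test. A few alternatives (HSC-like cells alone, sub-clusters of cluster 15, other thresholds for rich cells) were chosen after seeing the data. Mature protein sequences and genome sequence were not used here, and Anxa3 has no promoter window.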

Additional observations from a re-analysis of the deposited data

Results flagged for a closer look

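For 5 genes the mice moved in opposite directions between the gates, with 1 tube per mouse and gate, so these differences were not tested. Over all cells the log2 ratio of tdTomato-positive over tdTomato-negative CPM was 1.50 in mouse 1 and -0.17 in mouse 2 for Elane. It was 1.21 in mouse 1 and -0.0295 in mouse 2 for Igsf6, and -0.62 in mouse 1 and 0.52 in mouse 2 for Fcnb. Outside cluster 15 the ratio was 0.19 in mouse 1 and -0.0456 in mouse 2 for Elane. It was -0.48 and 0.18 for Ly6c2, -0.0261 and 0.128 for Clec12a, and -0.13 and 0.58 for Igsf6, mouse 1 before mouse 2. By chemistry these directions were not stable. In mouse 2 Elane had -0.36 with GEM-X and 0.09 with v3.1, and Igsf6 -0.18 and 0.27 over all cells. Fcnb in mouse 1 had -0.94 with GEM-X and 0.44 with v3.1, and in mouse 2 it had 1.63 with GEM-X, against 1 UMI in positive and 75 in negative cells with v3.1. The Fcnb ratios rest on 39 and 189 UMIs in mouse 1 and on 59 and 136 UMIs in mouse 2, positive before negative.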

How the results depend on the processing

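The gate calls depended on the fit. Of the 10 genes over all cells, 9 passed with RLE size factors, no count filter, no dispersion floor, a hashtag posterior of 0.9 and v3.1 alone. Without the replicate block (mouse), 0 of the 10 and 0 of all genes passed, against 9 and 132 with it. With DESeq2 0 of the 10 and 5 of all genes passed (0 of the 10 at an unadjusted p under 0.05 in either fit), without Scrublet doublets 0 and 20 (9 of the 10 at an unadjusted p under 0.05), and with GEM-X alone 0 and 1. Without the richest 1% of cells 4 of the 10 and 161 of all genes passed. All genes called were 208 with no filter and 61 with v3.1 alone. Leaving out 1 tube, with no block possible, gave 0 of the 10 and 0 to 1 of all genes. The log2 fold changes then ranged between -0.29 and 0.97 for Mpo, -0.45 and 1.75 for Elane, -0.35 and 1.33 for Ctsg, -0.30 and 1.08 for Prtn3, -0.19 and 1.61 for Ms4a3, -0.0271 and 1.47 for Ly6c2, -0.13 and 0.72 for Clec12a, -0.38 and 1.09 for Anxa3, and -0.18 and 1.36 for Igsf6, with every negative value from the fit without the positive tube of mouse 1. That last fit set the positive tube of mouse 2 against the negative tubes of both mice. In each such fit the lone tube is assumed to vary like the others. The cause of these changes was not tested. Outside cluster 15, no block gave 0 of 9 genes and 0 of all, GEM-X alone 4, v3.1 alone 0 and 44 of all genes with Ctsg at -0.0322, and leaving out 1 tube 0 and 0 to 2 of all genes, with Mpo between -0.23 and 0.39 and Ctsg between -0.31 and 0.62. In HSC-like cells 11 genes passed, 0 without the block and 0 to 1 with 1 tube left out. Between chemistries 0 of the 10 passed without the tube as block, 5 to 8 with 1 tube left out, and Ly6c2 ranged between -0.21 and 0.19. The share of HSC-like cells with Prtn3 was 73.4% unthinned, 54.3% in mouse 1 alone, 41.1% with GEM-X and 59.2% with v3.1. The median log2 ratio without the richest 0.25%, 0.5%, 2% and 5% of cells was 0.579, 0.471, 0.0120 and 0.00652 in mouse 1. In mouse 2 it was -0.0196, 0.185, 0.0768 and 0.0877, and it was 0.14 with v3.1 alone and 0.13 outside cluster 15. The 2 mice, and the few rich cells of mouse 2, limit what these data can show.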

Other observations

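Outside cluster 15 the mice differed more than the gates for Mpo and Ctsg, which were picked after their values were seen. Mpo stood at 361 CPM in the positive and 336 CPM in the negative tube of mouse 1, and at 248 and 236 CPM in the positive and negative tubes of mouse 2. Ctsg stood at 95.6 and 86.2 CPM in mouse 1 and 56.3 and 50.5 CPM in mouse 2, positive before negative. Other genes did not follow this, with Ms4a3 at 8.56 and 7.27 CPM in mouse 1 and 8.28 and 7.90 CPM in mouse 2. The unnamed cluster 3, in which both genes were high, made up 10.8% of positive and 10.5% of negative cells of mouse 1, and 6.33% of positive and 6.78% of negative cells of mouse 2. With 1 mouse on each side this was not tested.

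Of the genes ranked after Camp by likeness of pattern over the 18 clusters, Calr (Pearson r 0.89), Pdia6 (0.88) and P4hb (0.87), which fold proteins in the endoplasmic reticulum, were highest in cluster 15. They were named after their values were seen.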
